A study of Mus musculus with 7 samples.

Results

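SR proteins, hnRNP proteins and core splicing factors were examined in C2C12 cells, a mouse myoblast line kept here as proliferating precursors of muscle. The genes were all rows of the knockdown table with a name that starts Srsf, Tra2a, Tra2b, Hnrnp, Rbfox, Mbnl, Celf, Ptbp, Sf3a, Sf3b or Snrp followed by the digits or letters of the family, which gave 66 of 13376 rows. They comprised 12 SR and Tra2 proteins, 21 hnRNP rows, 12 RBFOX, MBNL, CELF and PTBP regulators, 9 SF3A and SF3B subunits, and 12 Sm and other snRNP proteins. Cells received siRNA against the long noncoding RNA lnc-31 (2 libraries) or a scrambled siRNA (2 libraries). Levels are in FPKM, which divides the fragments of a gene by its transcript length and by the library's mapped fragments. A pull-down from the same cell line recovered RNA with biotinylated antisense probes that the labels call specific, taken here as the lnc-31 probes (1 library), or with lacZ probes as background (1 library), and its input library was not analysed here. All groups share the cell line. Whether the 2 libraries of a group stem from different cultures is not in the labels, and the p-values then cover the spread between these libraries alone, which may be technical.

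Splicing removes introns in the spliceosome, a machine built on small nuclear ribonucleoproteins (snRNPs), most of which hold a small nuclear RNA with a ring of Sm proteins. The U1 snRNP reads the start of an intron, and the U2 snRNP, with its SF3A and SF3B subunits, reads the branch site near the intron's end. SR proteins bind exons and help to include them, whereas hnRNP proteins coat nascent RNA and often block splice sites. RBFOX, MBNL, CELF and PTBP proteins set tissue patterns of alternative splicing, and muscle differentiation is known for shifts in these regulators. Many SR and hnRNP genes also control their own RNA through exons that lead to its decay.

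No name in the knockdown table is lnc-31. Mir31, a microRNA of its locus, shares a row with the name XLOC_026180, and which transcripts that row counts is not given. The row stood at 12.1 and 14.1 FPKM with lnc-31 siRNA, against 13.4 and 15.6 FPKM with scrambled siRNA (log2 fold change -0.14, limma adjusted p = 0.38). A fall of the target was thus not shown, and directions below are those of the libraries labelled lnc-31 siRNA. The library lnc-31 siRNA 1 stood apart on the first principal component (score 39.1, against -16.3 to -10.4 for the other libraries). Each splicing factor call below is given with single libraries left out. The myoblast markers Myod1, Myf5, Des, Cdh15, Itga7 and Ncam1 were present, and Pax7 has no row. All 18 tested contractile markers were higher with lnc-31 siRNA (summed level of the 19 with a row 828 and 864 FPKM, against 525 and 567 FPKM with scrambled siRNA), and 17 of 20 proliferation markers were lower (1667 and 1737, against 2005 and 2009 FPKM), though only 2 to 4 of the 20 passed with any single library left out. How many contractile markers passed with single libraries left out is not given here. In those refits Des, also counted among the myoblast markers, had log2 fold changes of 0.22 to 0.27. Those of Actc1, Mb, Myh3 and Mylpf were 0.72 to 1.19. Of all tested rows, 5.64% were called higher and 6.78% lower. In bulk RNA, fewer cells of a type and less RNA per cell cannot be told apart. The part of these shifts in the splicing factor values was not tested.

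Of the splicing factor genes 6 changed, and the changes were small. Of 63 tested genes (mean of 1 FPKM or more over the 4 libraries), Tra2a rose and Tra2b, Sf3a1, Sf3a3, Snrpa1 and Mbnl3 fell, by limma at an adjusted p under 0.05. That is 9.52% of them, against 12.4% of all 11500 tested rows called in either direction (5.64% higher and 6.78% lower). The difference between these shares was not tested. The other 57 did not pass. Without lnc-31 siRNA 1, the library that stood apart, Tra2a and Hnrnpa0 were called higher and Sf3a3 lower. Without any other single library the calls were Sf3a3 alone or Sf3a3 and Tra2b. Log2 fold changes ran from -0.46 to 0.31 with a median of -0.02, against -0.01 over all tested rows, and none reached 1.5-fold, which 2.03% of all rows did. The 95% interval of the change lay within 1.2-fold either way for 51 of the 63 genes (81.0%), against 47.4% of all tested rows. The splicing factor genes are abundant, with a median level of 84.2 FPKM over the 66 rows, against 11.0 FPKM over the table, and their median standard error was 0.05, against 0.06. Libraries of the groups did not overlap for 30 of the 63 genes, or 47.6%, against 60.2% of all rows. Both lnc-31 siRNA libraries lay above in 10 genes, against a background of 28.5% of rows, and below in 20 genes, against 31.7% of rows. The 66 rows summed to 9283 and 9721 FPKM with lnc-31 siRNA, against 9550 and 9784 FPKM with scrambled siRNA, and these sums overlap. Celf5, at a mean of 0.998 FPKM, fell just below the filter and Celf4, at 1.98 FPKM, was the lowest tested. Rbfox1 and the pseudogene Hnrnpa1l2-ps, both listed below 0.5 FPKM in every library, were not tested.

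**Figure D1:**
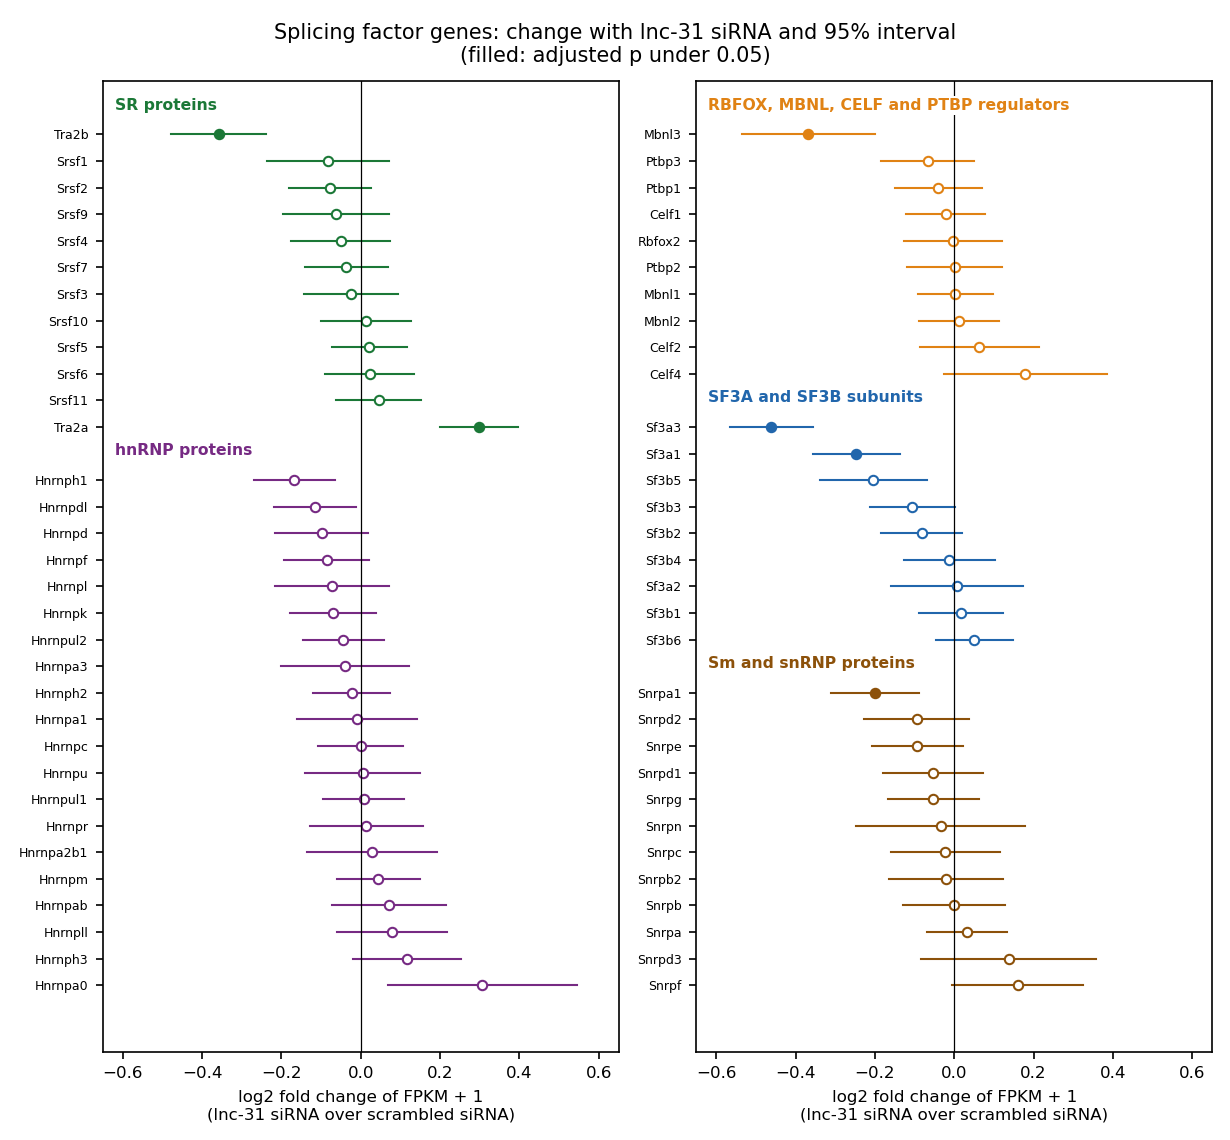
Log2 fold change of FPKM + 1 (lnc-31 siRNA over scrambled siRNA, x axis) for each of the 63 tested splicing factor genes (rows), with its 95% interval as a line; filled points passed an adjusted p under 0.05. Only Tra2a, Tra2b, Mbnl3, Sf3a1, Sf3a3 and Snrpa1 are filled, and no point lies beyond -0.46 or 0.31.

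**Figure D2:**
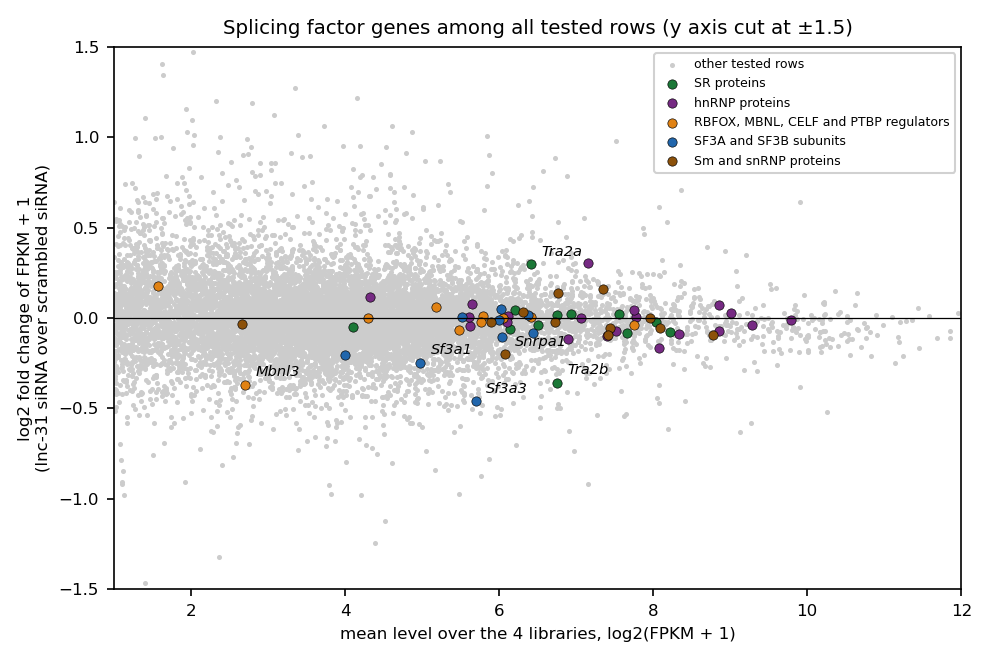
Log2 fold change (y axis) against the mean level over the 4 libraries, log2(FPKM + 1) (x axis), for all tested rows in grey and the splicing factor genes in colour by family; 26 rows beyond 1.5 on the y axis are not drawn. Most splicing factor genes lie to the right, at high levels, and close to 0.

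Among the SR and Tra2 proteins, the Tra2 pair moved in opposite directions. Tra2a and Tra2b encode closely related SR-like proteins that bind purine-rich exon enhancers. Tra2a (chromosome 6, 49243921 to 49264248, GRCm38) was at 91.4 and 94.3 FPKM with lnc-31 siRNA, against 75.0 and 75.6 FPKM with scrambled siRNA. It rose by 0.30 on the log2 scale (SE 0.04, limma adjusted p = 0.013), and the groups did not overlap. Tra2b (chromosome 16, 22244552 to 22266005) was at 91.7 and 94.9 FPKM with lnc-31 siRNA, against 116.1 and 123.7 FPKM with scrambled siRNA. It had a log2 fold change of -0.36 (SE 0.05, limma adjusted p = 0.014), again with no overlap. The ratio of Tra2a to Tra2b was 0.997 and 0.994 in the lnc-31 siRNA libraries and 0.646 and 0.611 in the scrambled siRNA libraries, so the pair stood at nearly equal FPKM in the knockdown and not in the control. An exact permutation test (two-sided) of this ratio gave p = 0.333, the smallest that 2 libraries against 2 allow. The limma call of Tra2a held without lnc-31 siRNA 1 (adjusted p = 0.041) and was lost without lnc-31 siRNA 2 (0.057), scrambled siRNA 1 (0.079) or scrambled siRNA 2 (0.074). That of Tra2b held without lnc-31 siRNA 2 (0.044) or scrambled siRNA 1 (0.047) and was lost without lnc-31 siRNA 1 (0.052) or scrambled siRNA 2 (0.073).

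**Figure D3:**
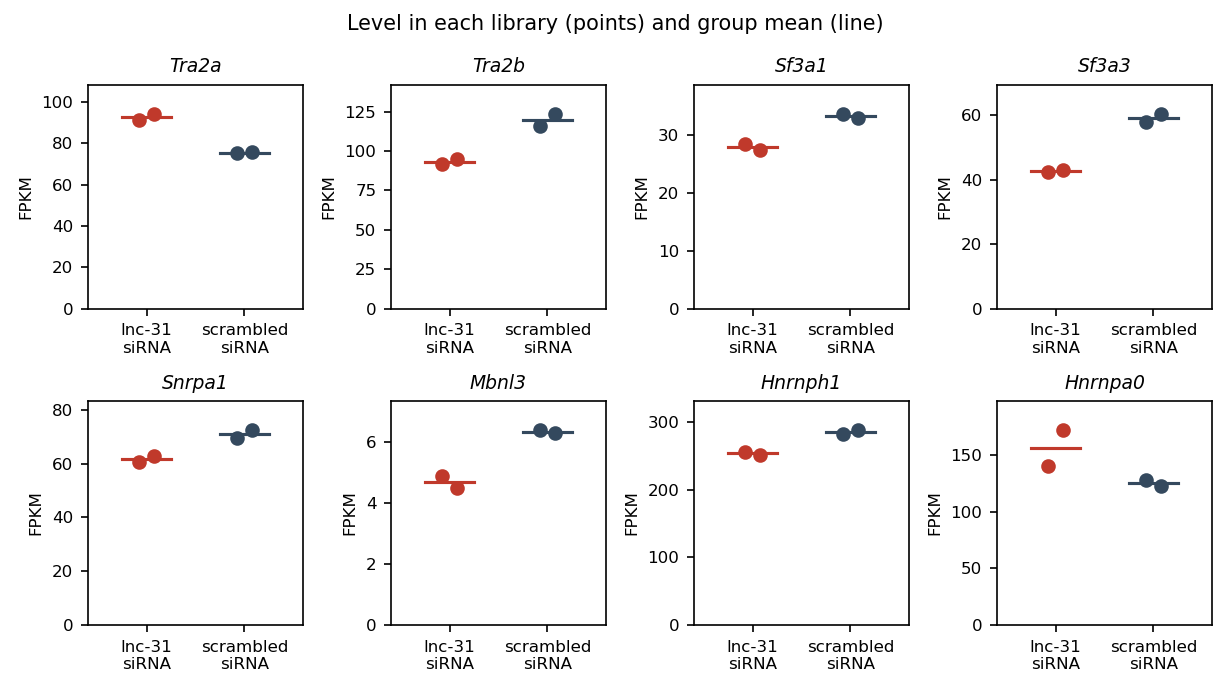
FPKM (y axis, from 0) in each library for the 6 genes that passed and for Hnrnph1 and Hnrnpa0, with lnc-31 siRNA left of scrambled siRNA; points are libraries and lines are group means of 2. Tra2a is higher and Tra2b, Sf3a1, Sf3a3, Snrpa1 and Mbnl3 are lower with lnc-31 siRNA, with no overlap between the groups in any panel.

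The promoters of the Tra2 pair are shown because these genes moved in opposite directions. Each line gives the 250 bases before a RefSeq start site (GRCm38.p6), 5′ to 3′ on the gene's strand, with matches to the motifs listed further on in capitals. The Tra2a window precedes an inner start site, and 196 of its bases lie within the gene span given above.
Tra2a (chr6:49264053-49264302, minus strand): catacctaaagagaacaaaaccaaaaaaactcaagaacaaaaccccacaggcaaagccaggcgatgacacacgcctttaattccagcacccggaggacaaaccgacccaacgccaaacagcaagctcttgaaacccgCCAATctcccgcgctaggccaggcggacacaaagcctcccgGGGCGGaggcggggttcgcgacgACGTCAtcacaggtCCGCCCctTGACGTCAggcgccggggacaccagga
Tra2b (chr16:22266006-22266255, minus strand): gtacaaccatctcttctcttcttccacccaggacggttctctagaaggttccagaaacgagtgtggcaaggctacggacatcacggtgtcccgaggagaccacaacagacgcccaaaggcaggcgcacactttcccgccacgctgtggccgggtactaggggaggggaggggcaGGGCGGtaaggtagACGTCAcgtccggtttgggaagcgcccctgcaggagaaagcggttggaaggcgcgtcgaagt
Both hold the SP letters and the CRE core, which has 3 matches before Tra2a, a pair of them overlapping, and 1 before Tra2b. Of the genes shown here, Tra2a alone holds the CCAAT box. A match is a description of the letters and says nothing of a factor.

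None of the other 10 SR genes passed, and their log2 fold changes ran from -0.08 to 0.05. The most abundant was Srsf2, which also takes part in transcription elongation, at 284 and 292 FPKM with lnc-31 siRNA, against 305 and 303 FPKM with scrambled siRNA (log2 fold change -0.08, limma adjusted p = 0.27). Its libraries did not overlap, but the difference did not pass. Srsf3, the smallest SR protein, was at 252 and 267 FPKM, against 261 and 268 FPKM (log2 fold change -0.02, 95% interval -0.14 to 0.09). Srsf1, the prototype of the family, was at 186 and 207 FPKM, against 203 and 212 FPKM (-0.08, interval -0.24 to 0.07). Both pairs of groups overlapped. Srsf5, Srsf6, Srsf7, Srsf9, Srsf10 and Srsf11 lay between 67.7 and 189 FPKM in all libraries and Srsf4 between 15.8 and 16.9 FPKM.

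Of the U2 snRNP proteins, the SF3A subunits Sf3a1 and Sf3a3 and the U2 protein Snrpa1 were lower with lnc-31 siRNA. SF3A is a complex of Sf3a1, Sf3a2 and Sf3a3 that joins the U2 snRNP and contacts RNA upstream of the branch site. Sf3a3 (chromosome 4, 124714861 to 124732423) was at 42.5 and 43.0 FPKM with lnc-31 siRNA, against 58.0 and 60.5 FPKM with scrambled siRNA. Its log2 fold change of -0.46 (SE 0.04, limma adjusted p = 0.0063) was the largest among the splicing factor genes, and the call held with any single library left out (adjusted p 0.026 to 0.045). Sf3a1 (chromosome 11, 4160354 to 4182541) was at 28.3 and 27.3 FPKM, against 33.6 and 32.8 FPKM (-0.25, SE 0.04, limma adjusted p = 0.027). Sf3a2 was at 47.8 and 42.0 FPKM, against 44.8 and 44.3 FPKM, with overlapping groups (0.01, 95% interval -0.16 to 0.17, limma adjusted p = 0.96). The ratio of Sf3a3 to Sf3a2 was therefore 0.889 and 1.03 with lnc-31 siRNA and 1.29 and 1.36 with scrambled siRNA, and that of Sf3a1 to Sf3a2 was 0.593 and 0.651, against 0.749 and 0.740 (exact permutation p = 0.333 each, the smallest possible). The call of Sf3a1 was lost with any library left out (limma adjusted p = 0.069 without lnc-31 siRNA 1, 0.104 without lnc-31 siRNA 2, 0.121 without scrambled siRNA 1 and 0.099 without scrambled siRNA 2) and with a constant prior variance (0.051).

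Snrpa1 encodes a U2 snRNP protein that binds the U2 RNA together with the product of Snrpb2. Snrpa1 (chromosome 7, 66060336 to 66074587) was at 60.5 and 62.8 FPKM with lnc-31 siRNA, against 69.4 and 72.4 FPKM with scrambled siRNA (log2 fold change -0.20, SE 0.04, limma adjusted p = 0.045). The groups did not overlap, but the call lay close to the threshold. It was lost without lnc-31 siRNA 1 (0.150), lnc-31 siRNA 2 (0.098), scrambled siRNA 1 (0.113) or scrambled siRNA 2 (0.180), with a constant prior variance (0.084) and with no filter on low values (0.051). Snrpb2 was at 55.1 and 61.0 FPKM, against 58.2 and 59.2 FPKM, and the groups overlapped. The ratio of Snrpa1 to Snrpb2 was 1.10 and 1.03 with lnc-31 siRNA and 1.19 and 1.22 with scrambled siRNA. Each ratio above includes a gene called in these same libraries, so the ratios add no separate support. The ratio of Ptbp2 to Ptbp1, neither of which passed, did not overlap either (0.0881 and 0.0887, against 0.0859 and 0.0860). Those of Mbnl3 to Mbnl1 (0.0584 and 0.0528, against 0.0756 and 0.0749) and Hnrnph1 to Hnrnph2 (3.86 and 3.70, against 4.11 and 4.25) also did not overlap.

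**Figure D4:**
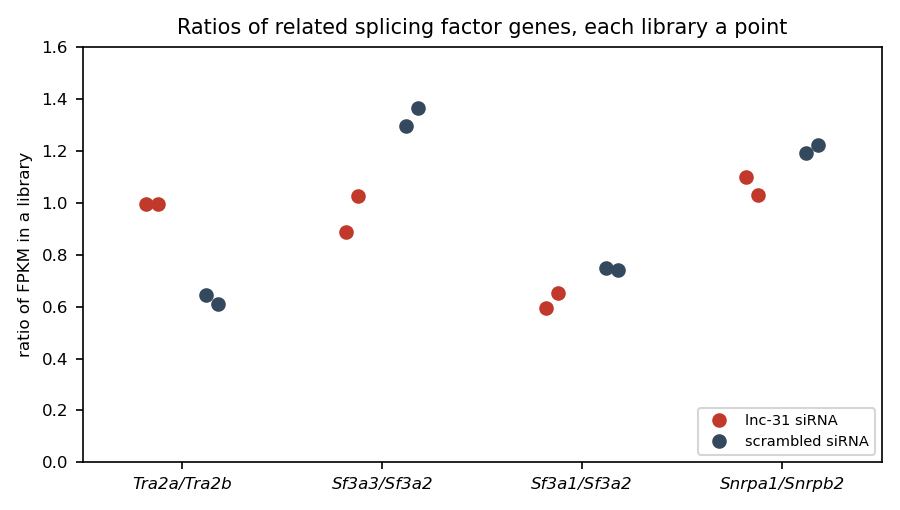
Ratio of the FPKM of paired splicing factor genes within each library (y axis, from 0), with lnc-31 siRNA left of scrambled siRNA for each pair; each point is 1 library. Tra2a/Tra2b is near 1 with lnc-31 siRNA and 0.611 to 0.646 with scrambled siRNA, and the ratios of Sf3a3 and Sf3a1 to Sf3a2 and of Snrpa1 to Snrpb2 are lower with lnc-31 siRNA. Every pair drawn includes a gene called in these libraries, and other pairs computed are not drawn.

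The promoters of Sf3a1, Sf3a3 and Snrpa1, the U2 genes called lower, are shown in the same form.
Sf3a1 (chr11:4160104-4160353, plus strand): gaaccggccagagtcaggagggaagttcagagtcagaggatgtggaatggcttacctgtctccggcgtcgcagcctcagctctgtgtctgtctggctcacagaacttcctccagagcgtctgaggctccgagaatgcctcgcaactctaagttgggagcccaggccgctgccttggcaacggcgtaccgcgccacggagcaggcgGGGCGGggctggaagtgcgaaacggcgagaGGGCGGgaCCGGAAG
Sf3a3 (chr4:124714611-124714860, plus strand): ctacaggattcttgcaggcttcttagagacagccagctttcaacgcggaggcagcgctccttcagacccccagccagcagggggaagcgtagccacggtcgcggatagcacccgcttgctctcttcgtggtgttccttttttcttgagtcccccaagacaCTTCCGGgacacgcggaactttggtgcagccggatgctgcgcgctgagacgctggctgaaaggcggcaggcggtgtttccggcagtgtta
Snrpa1 (chr7:66060086-66060335, plus strand): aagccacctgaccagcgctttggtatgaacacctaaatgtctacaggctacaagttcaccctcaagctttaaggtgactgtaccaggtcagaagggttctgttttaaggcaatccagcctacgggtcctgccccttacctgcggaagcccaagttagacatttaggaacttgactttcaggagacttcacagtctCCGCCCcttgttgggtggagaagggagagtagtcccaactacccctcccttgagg
Sf3a1 and Sf3a3 hold the ETS letters, Sf3a1 and Snrpa1 the SP letters, and no motif searched was in all of these windows. The window before Mbnl3, the remaining called gene, held no motif searched and is not printed. The motifs, read on both strands with overlaps allowed, were NRF1, ETS (CCGGAAG), SP (GGGCGG), the CCAAT box (CCAAT), E2F (TTTNGCGC), the CRE core (TGACGT), YY1 (AAGATGGC), the E-box (CACGTG) and the TATA box (TATAAA). Of 56 splicing factor genes with a promoter in the RefSeq table, 40 (71.4%) held the SP letters, 15 (26.8%) ETS, 12 (21.4%) NRF1, 11 (19.6%) the CRE core and 26 (46.4%) the CCAAT box, in any of their windows. In all 32536 windows the shares were 33.0% for SP, 6.95% for ETS, 5.02% for NRF1, 6.50% for the CRE core and 33.8% for the CCAAT box. E2F, YY1, the E-box and the TATA box were in 3, 3, 6 and 8 of the 56 genes, and in 1.14%, 1.57%, 6.04% and 12.3% of all windows. The median GC content was 59.6% in the splicing factor windows and 52.4% in all windows, its part in these shares was not tested, and genes with several start sites had several windows to match.

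None of the SF3B subunits, which clamp the branch site helix, passed the test. Sf3b1, the scaffold of SF3B, was at 80.7 and 83.7 FPKM with lnc-31 siRNA, against 82.4 and 79.9 FPKM with scrambled siRNA (log2 fold change 0.02, 95% interval -0.09 to 0.12). Sf3b2 was at 81.5 and 84.8 FPKM, against 87.6 and 88.5 FPKM (-0.08, limma adjusted p = 0.24), and Sf3b3 at 61.6 and 63.5 FPKM, against 68.6 and 66.2 FPKM (-0.11, limma adjusted p = 0.17). Sf3b5, a small subunit, was at 13.9 and 14.0 FPKM, against 16.8 and 15.7 FPKM (-0.20, limma adjusted p = 0.066). In Sf3b2, Sf3b3 and Sf3b5 the groups did not overlap, with lnc-31 siRNA lower, but the differences did not pass. Sf3b6 was at 65.7 and 65.2 FPKM, against 62.4 and 63.9 FPKM (0.05, limma adjusted p = 0.43), with lnc-31 siRNA higher and no overlap. Such a separation was seen in 60.2% of all tested rows. The 9 SF3A and SF3B rows summed to 487 and 484 FPKM with lnc-31 siRNA, against 517 and 515 FPKM with scrambled siRNA. That sum includes the called Sf3a3 (mean 42.8 FPKM, against 59.2 FPKM) and Sf3a1 (27.8 FPKM, against 33.2 FPKM).

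The Sm proteins, which form the ring around the U1, U2, U4 and U5 RNAs, were abundant and none passed. Snrpe was at 424 and 421 FPKM with lnc-31 siRNA, against 440.0 and 461 FPKM with scrambled siRNA (log2 fold change -0.09, limma adjusted p = 0.23). Snrpg was at 259 and 274 FPKM, against 278 and 274 FPKM, and Snrpb, which encodes SmB, at 239 and 257 FPKM, against 244 and 252 FPKM (-0.00, interval -0.13 to 0.13). Snrpf was at 168 and 174 FPKM, against 163 and 144 FPKM (0.16, SE 0.07, limma adjusted p = 0.17), with no overlap. The remaining Sm rows, Snrpd1, Snrpd2 and Snrpd3, and the U1 proteins Snrpa and Snrpc had log2 fold changes from -0.09 to 0.14. Snrpn, the imprinted paralog of Snrpb, shares a row with Snurf and was at 5.09 and 5.43 FPKM, against 5.83 and 5.01 FPKM. Snrpb and Snrpn encode nearly the same protein, and the Sm genes have processed copies, so their rows are uncertain where the authors' counting could split reads.

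None of the 20 tested hnRNP rows passed, while 3 had an unadjusted p under 0.05, Hnrnph1, Hnrnpa0 and Hnrnpdl, against 30.9% of all tested rows. Hnrnpa1, a repressor of many exons and the most abundant splicing factor gene, was at 844 and 923 FPKM with lnc-31 siRNA, against 883 and 893 FPKM with scrambled siRNA (log2 fold change -0.01, 95% interval -0.16 to 0.14). Hnrnpa3 was at 589 and 641 FPKM, against 610.0 and 655 FPKM, and Hnrnpa2b1 at 499 and 541 FPKM, against 488 and 531 FPKM. In these abundant genes the spread within a group was as wide as the difference between groups. Hnrnph1, which binds runs of G, was at 256 and 251 FPKM, against 282 and 288 FPKM, with no overlap (-0.17, SE 0.04, limma adjusted p = 0.055). It passed under quantile normalization (adjusted p = 0.033), median of ratios scaling (0.039), a minimum mean of 5 FPKM (0.047) and the replicate number as a block (0.039). With single libraries left out Hnrnph1 passed in no case, and its log2 fold change was -0.18 to -0.15. Hnrnpa0 was at 141 and 172 FPKM, against 128 and 123 FPKM (0.31, SE 0.10, limma adjusted p = 0.097). Its lnc-31 siRNA libraries differed widely, and it passed only without lnc-31 siRNA 1, the lower of them. The log2 fold change of Hnrnpa0 was then 0.45, against 0.16 without lnc-31 siRNA 2. It was 0.33 without scrambled siRNA 1 and 0.28 without scrambled siRNA 2. Hnrnpdl, whose RNA is spliced under its own protein's control, was at 111 and 115 FPKM, against 121 and 124 FPKM (-0.12, limma adjusted p = 0.13). Hnrnph2, the closest paralog of Hnrnph1, was at 66.4 and 67.9 FPKM, against 68.6 and 67.7 FPKM, with overlapping groups. Hnrnpa1 has many processed copies in the genome, so its row is uncertain in the same way, and the Hnrnpm and Hnrnpu rows also carry March2 and Gm28062.

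Among the tissue regulators Mbnl3 alone passed. MBNL proteins bind YGCY motifs, where Y is a pyrimidine, and promote adult splicing patterns in muscle, while Mbnl3 has been tied to the undifferentiated state of muscle precursors. Mbnl3 (chromosome X, 51113494 to 51205990) was at 4.88 and 4.51 FPKM with lnc-31 siRNA, against 6.40 and 6.29 FPKM with scrambled siRNA (log2 fold change -0.37, SE 0.07, limma adjusted p = 0.028). The groups did not overlap, but the call was lost with any library left out (0.066 without lnc-31 siRNA 1, 0.109 without lnc-31 siRNA 2, 0.110 without scrambled siRNA 1 and 0.101 without scrambled siRNA 2). Mbnl1 was at 83.6 and 85.4 FPKM, against 84.6 and 84.0 FPKM (0.00, 95% interval -0.09 to 0.10), and Mbnl2 at 55.6 and 53.9 FPKM, against 54.6 and 53.8 FPKM (0.01, interval -0.09 to 0.11). Both stood above Mbnl3 in every library, and their groups overlapped.

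Ptbp1, a repressor of muscle and neuronal exons in precursor cells, was at 216 and 206 FPKM with lnc-31 siRNA, against 215 and 219 FPKM with scrambled siRNA (log2 fold change -0.04, 95% interval -0.15 to 0.07). Ptbp2, its neuronal paralog, was at 19.0 and 18.2 FPKM, against 18.4 and 18.8 FPKM (0.00, interval -0.12 to 0.12), and Ptbp3 at 44.0 and 41.4 FPKM, against 44.4 and 45.2 FPKM. Thus Ptbp1 stood above Ptbp3 and Ptbp3 above Ptbp2 in all libraries, with no change that passed. Rbfox2, the RBFOX gene expressed here, was at 64.4 and 65.8 FPKM, against 62.9 and 67.7 FPKM (-0.00, interval -0.13 to 0.12). Rbfox1, the muscle and brain paralog, was at 0.261 and 0.481 FPKM, against 0.202 and 0.0845 FPKM, too low for the test. Celf1, which opposes MBNL on shared exons, was at 52.6 and 53.7 FPKM, against 53.4 and 54.5 FPKM, and Celf2 at 36.1 and 36.2 FPKM, against 32.7 and 36.5 FPKM. The neuronal Celf4 was at 2.17 and 2.16 FPKM, against 1.77 and 1.82 FPKM (0.18, SE 0.08, limma adjusted p = 0.21), with no overlap, and Celf5 at 0.964 and 0.739 FPKM, against 1.06 and 1.23 FPKM. Of 10 listed neural markers 5 have a row. No neural marker of the 5 tested passed limma (2 at an unadjusted p under 0.05, which 30.9% of all tested rows had). These were Map2 (log2 fold change -0.30) and Syn1 (0.24), which moved in opposite directions with no overlap. The summed level of the 5 was 87.6 and 89.6 FPKM with lnc-31 siRNA, against 89.6 and 93.9 FPKM with scrambled siRNA. In that sum Stmn2 alone gave 54.4 and 56.4 FPKM, against 53.5 and 59.2 FPKM.

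Other splicing genes, from lists written with earlier results of these data known, are read beside the 12.4% of all tested rows called in either direction. Of 84 other spliceosome subunits 1 rose and 4 fell (5.95%, median log2 fold change -0.00). Prpf18, a factor of the second catalytic step, was at 8.33 and 8.75 FPKM with lnc-31 siRNA, against 17.9 and 17.5 FPKM with scrambled siRNA (-0.97, SE 0.05, limma adjusted p = 0.0030), and it passed with any library left out. Prpf38b had a log2 fold change of -0.30 and Rnps1 of -0.19, while the step factor Cdc40 rose by 0.27. Of 10 tested SR protein kinases and importins, Srpk1, a cytoplasmic kinase of SR proteins, fell to 27.3 and 26.7 FPKM, against 31.1 and 31.3 FPKM with scrambled siRNA (-0.20, SE 0.04, limma adjusted p = 0.036). The nuclear kinases Clk1, Clk2, Clk3 and Clk4 did not pass (-0.02 to 0.05). Of 26 snRNP assembly and Lsm genes 1 fell, Gemin2 of the SMN complex (-0.32, limma adjusted p = 0.046). Of 40 other splicing regulators, of which 2, Hnrnpdl and Hnrnpll, are hnRNP rows described above, Rbm24, which promotes muscle exons, rose by 0.51, and Fubp3 (-0.59) and Rbm4b (-0.37) fell. Rbm4b has a close paralog in Rbm4, whose row also names Rbm14 and Gm21992, and its value is uncertain. Of 21 exon junction, export and decay genes the decay nuclease Smg6 rose by 0.37 and the kinase Smg1 fell by 0.34. With single libraries left out, the calls of Cdc40, Srpk1, Gemin2, Rbm4b and Smg1 were lost in each case. The limma adjusted p ran from 0.102 to 0.141 for Srpk1, from 0.063 to 0.142 for Gemin2, from 0.067 to 0.133 for Rbm4b, from 0.063 to 0.082 for Smg1 and from 0.076 to 0.123 for Cdc40. Rbm24 passed only without scrambled siRNA 2 (0.047, otherwise 0.075 to 0.094). Prpf38b and Smg6 passed only without lnc-31 siRNA 2 (0.047 each). Fubp3 passed without lnc-31 siRNA 1 (0.019) or lnc-31 siRNA 2 (0.034) and was lost without scrambled siRNA 1 (0.067) or scrambled siRNA 2 (0.082). The values of Rnps1 with single libraries left out are not given here.

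The pull-down addressed which transcripts the lnc-31 probes recovered beyond the lacZ background. Each probe set has a single library, so these values have no replicate check, and none was tested. More splicing factor genes held a lacZ probe peak than a lnc-31 probe peak. A lnc-31 probe peak lay in the gene body of 6 of the 66 genes (9.09%), against 1.8% of 12023 table genes placed in RefSeq. A lacZ probe peak lay in 11 of the 66 genes (16.7%), against 1.72% of those 12023 genes. In all there were 6 lnc-31 probe peaks and 27 lacZ probe peaks in these genes, though the whole lists held 596 and 476 peaks. The splicing factor genes are more abundant than the table as a whole (above) and shorter, with a median gene span of 13.9 kb, against 21.6 kb, and the part of level in these shares was not tested. No SF3A, SF3B, Sm or snRNP gene held a peak of either kind.

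**Figure D5:**
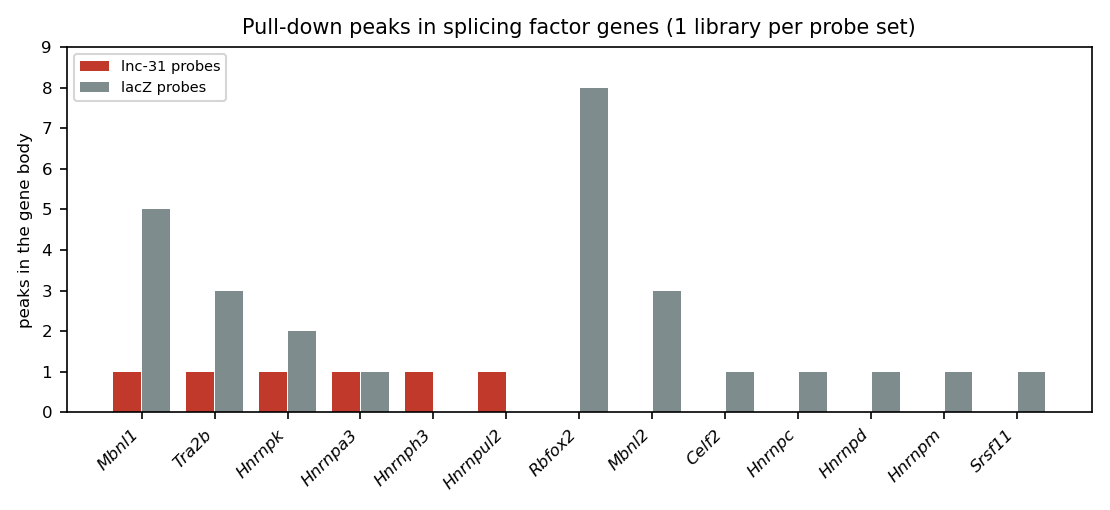
Number of peaks in the gene body (y axis, from 0) for the 13 splicing factor genes with any peak, lnc-31 probes left of lacZ probes; 1 library per probe set. No gene has more than 1 lnc-31 probe peak, and Rbfox2 has 8 lacZ probe peaks.

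Of the 6 genes with a lnc-31 probe peak, Mbnl1, Tra2b, Hnrnpk and Hnrnpa3 also held lacZ probe peaks. In Tra2b the lnc-31 probe peak chr16:22255601-22256000 lay wholly within a lacZ probe peak that ended at 22256200, about 10.2 kb from the start site, and lacZ probes gave 2 more peaks in the gene. The p-value in the authors' deposited lists, read as one from its range alone, was 0.000284 for the first and 0.000879 for the other. In Mbnl1 both probe sets gave the peak chr3:60621201-60621400, and lacZ probes gave 4 more in the gene. In Hnrnpk, which encodes a protein that binds runs of C, the lnc-31 probe peak chr13:58397201-58397400 lay within a lacZ probe peak. In Hnrnpa3 the lnc-31 probe peak chr2:75664001-75664200 adjoined a lacZ probe peak with 0 bases between them.

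Of the 66 genes, only Hnrnph3 and Hnrnpul2 held a lnc-31 probe peak and no lacZ probe peak. Hnrnph3, a paralog of Hnrnph1, had the peak chr10:63017801-63018000, whose deposited p of 1.25e-05 was the lowest of all peaks in these genes. Hnrnpul2 had the peak chr19:8831401-8831600 (deposited p 0.000691). Both peaks were 200 bases wide, and neither gene passed in the knockdown. Hnrnph3 was at 19.1 and 20.6 FPKM with lnc-31 siRNA, against 18.4 and 18.1 FPKM with scrambled siRNA (log2 fold change 0.12, limma adjusted p = 0.21), and Hnrnpul2 at 46.9 and 48.5 FPKM, against 49.1 and 49.2 FPKM (-0.04, limma adjusted p = 0.51).

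Lacking any lnc-31 probe peak, 7 genes held lacZ probe peaks. Rbfox2 held 8, from 77092601 to 77148600 on chromosome 15, of which 3 also lay in the gene 1700109K24Rik, and Mbnl2 held 3 between 120394401 and 120397400 on chromosome 14. Celf2, Srsf11, Hnrnpc, Hnrnpd and Hnrnpm held 1 each. The lists carry 1 strand symbol throughout, so a peak was not assigned to a strand. Of the 6 genes called in the knockdown, Tra2b alone held any peak.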

How the data were processed

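Per the labels' protocols, the 4 siRNA libraries of C2C12 cells were prepared with a stranded mRNA kit, while pull-down libraries came from NuGEN's Ovation system. FPKM values were deposited for the siRNA libraries. The submitters' processing notes name mm10 and, with no order or version, Cuffdiff, TopHat2, BWA, Bowtie2, Trimmomatic and CASAVA. The deposited peak lists (mm10, with cutadapt and Picard also named in those notes) give a value per peak that was read as a p-value from its range. The peak-calling program is not given by the sources used here. Peaks are multiples of 200 bases. FPKM showed no steps of whole reads (the commonest ratio between scrambled libraries recurred in 6 of 1483 low rows), so the depth is unknown and counting intervals were not computed. Strand use in counting is not stated, so antisense reads cannot be told apart.

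Rows averaging at least 1 FPKM (11500 of 13376) were tested as log2(FPKM + 1) with limma 3.58.1 in R 4.3.3 (trended prior, prior degrees of freedom 3.62, two-sided, Benjamini-Hochberg over all tested rows, threshold 0.05). Fold changes understate the change of low genes. The fit was tested on simulated data. RefSeq on GRCm38.p6, whose coordinates are those of mm10, gave gene spans and promoters. All 66 genes and 12023 table rows (89.9%) matched by symbol. A peak was assigned to a gene by an overlap of 1 base or more. Named genes were every called gene, the 3 most abundant and the 2 most changed of each family, every gene with a peak, every RBFOX, MBNL, CELF and PTBP gene, and up to 4 called genes per other list, and others named were chosen after their values were seen. A gene that the rule takes from the other lists is not reported here. Fibroblast and myoblast marker lists were also counted (3 of 5 and 4 of 6 tested higher, with 0 lower). The members and lists were chosen with earlier results of these data known. Tables and figures were made in Python 3.11.15 (numpy 2.4.6, pandas 2.3.3, matplotlib 3.10.9). Alternatives covered the pseudocount, the filter, 2 scalings, a constant prior, a replicate block, single libraries left out and the peak rules.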

Additional observations from a re-analysis of the deposited data

How the results depend on the processing

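With pseudocounts of 0.1 and 0.5 the same 6 genes were called, and with quantile normalization, median of ratios scaling, a mean of 5 FPKM and the replicate block these 6 and Hnrnph1, so that 1 hnRNP gene was lower under each of those settings. With no filter 5 of the 6 were called (0 Sm and snRNP and 0 snRNP assembly genes lower). A constant prior variance called 4 of them, 1 higher and 3 lower, with 1 SF3 gene, 0 Sm and snRNP, 2 other spliceosome, 0 kinase, 0 snRNP assembly and 10 proliferation genes lower and 2 myoblast markers higher. Quantile normalization called 2 other spliceosome and 2 snRNP assembly genes higher, and median of ratios scaling 2 and 1. The replicate block moved the count of all calls to 728 higher and 885 lower, against 649 and 780, and called 0 snRNP assembly genes and 1 neural marker lower. Nothing in the labels says that a number marks a shared day or culture, so the numbers were not taken as pairs. Deviations of same-numbered libraries from their group means had a correlation of -0.09, which did not decide that choice.

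With 1 library left out, where a group of 1 is assumed to vary like the other, calls over all rows were 132 to 266 higher and 97 to 242 lower, and the splicing factor genes 0 to 2 higher and 1 to 2 lower, with medians of -0.04 to -0.01. SR genes were 0 to 1 higher and 0 to 1 lower, hnRNP genes 0 to 1 higher, SF3 genes 1 lower, and tissue regulators and Sm and snRNP genes 0 lower. Other spliceosome genes were 0 higher and 1 to 2 lower, other regulators 0 to 1 higher and 0 to 1 lower, junction and decay genes 0 to 1 higher and 0 lower, and kinase and assembly genes 0 lower. Proliferation markers were 2 to 4 lower, myoblast markers 0 to 1 higher and fibroblast markers 1 higher. Genes that were not called and changed sign in log2 fold change were Celf2 (-0.0130 to 0.139), Hnrnpa1 (-0.0742 to 0.0561), Hnrnpa2b1 (-0.0320 to 0.0895), Hnrnpa3 (-0.101 to 0.0217), Hnrnpc (-0.0344 to 0.0337), Mbnl1 (-0.0121 to 0.0189), Mbnl2 (-0.00957 to 0.0352), Ptbp2 (-0.0273 to 0.0297), Rbfox2 (-0.0547 to 0.0496), Sf3b1 (-0.00851 to 0.0440), Snrpb (-0.0533 to 0.0515) and Srsf3 (-0.0664 to 0.0171). Quantile normalization turned Hnrnpa1 (0.0336), Hnrnpa3 (0.0261), Mbnl1 (-0.00446) and Rbfox2 (0.00608), and median of ratios scaling Rbfox2 (0.00199), Snrpb (0.00365) and Hnrnpc (0.00415). The cause was not tested.

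The peaks with the smallest p, 1 in 4 of each list, left 1 gene with lnc-31 and 6 with lacZ probe peaks, and peaks without overlap between probe sets left 3 with lnc-31 probe peaks. The unknown depth limits the genes of few FPKM most.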

Other observations

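Outside the named families, the decay factors Upf2 and Smg1 held the most lnc-31 probe peaks among the other splicing and decay genes. Upf2, a core factor of nonsense-mediated decay, held 8 lnc-31 probe peaks, and Smg1, the kinase of that pathway, held 3. Neither held a lacZ probe peak. Upf2 was at 12.1 and 12.1 FPKM with lnc-31 siRNA, against 9.71 and 10.8 FPKM with scrambled siRNA (log2 fold change 0.22, limma adjusted p = 0.084), and Smg1 at 11.8 and 11.9 FPKM, against 15.1 and 15.6 FPKM. Pnn held 2 lnc-31 probe peaks, and Nono, Prpf4b and Syncrip held 1 each, all without a lacZ probe peak. The spliceosome and regulator genes Luc7l2, Rbm39 and Taf15 held 3, 4 and 2 lacZ probe peaks and no lnc-31 probe peak. Dyrk1a, Fubp1, Matr3, Rbms1, Sf1 and Smndc1 held 1 lacZ probe peak each, also without a lnc-31 probe peak. Of the other splicing regulators 12.5% held a lnc-31 and 20% a lacZ probe peak. The shares were 2.41% and 3.61% of other spliceosome subunits, and 9.52% and 0% of exon junction, export and decay genes. Over all genes placed in RefSeq they were 1.8% and 1.72%. Pcbp2, Rbm25 and Sfpq held both kinds, with 1, 2 and 1 lnc-31 probe peaks and 4, 4 and 1 lacZ probe peaks. These genes were singled out after their peaks were seen, and with 1 library per probe set no test was made.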
